A study of Rattus norvegicus with 2 samples.

Results

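The heat shock proteins and their DnaJ co-chaperones were described here in single cells of the rat zygomatic maxillary suture, the joint between the cheekbone and the upper jaw. Members were all genes of the deposited count tables whose symbol starts with Hspa, Hspb, Hspd, Hspe, Hsph, Hsp90 or Dnaj. The rule found 72 genes among the 22154 listed, of which 69 stood in the tables of both libraries. Hspa1a and Dnajc5b were listed in the distraction library alone, and Hspb9 in the sham library alone. The rule used symbols and no measured value.

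The study compared suture tissue under mechanical stretch with tissue after a sham operation. Both libraries came from rats of 4 weeks of age, sampled 7 days after surgery. In the distraction group a spring, bent from nickel-titanium wire 0.4 mm thick and set to pull with 20 g at first, was anchored in holes drilled on both sides of the suture. The sham group had the same exposure and drilled holes but no spring, so drilling was common to both groups. Each group was 1 library of cells caught on a BD Rhapsody cartridge, a microwell device that tags every captured RNA molecule with a unique molecular identifier (UMI). The number of animals per library was not given in the sources used here. With 1 library per group no p-value could be computed, and all intervals below are exact 95% intervals that cover counting error only, neither differences between animals nor between preparations.

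Heat shock proteins bind unfolded or partly folded proteins. HSP70 proteins hold and release clients in a cycle driven by ATP. DnaJ proteins, also called HSP40, deliver clients and start ATP hydrolysis, and exchange factors such as the HSP110 proteins reset the cycle. HSP90 finishes the folding of kinases and hormone receptors, small heat shock proteins keep clients from clumping without ATP, and the chaperonin HSP60 with its cap folds proteins inside mitochondria. The endoplasmic reticulum has its own set, led by the HSP70 protein BiP and the HSP90 protein GRP94. Heat shock factor 1 drives the cytosolic set after heat or mechanical injury, and the unfolded protein response drives the reticulum set. Bone-forming and matrix-secreting cells carry a large secretory load, and preparing tissue for single-cell work is itself known to induce heat shock genes in some cells.

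The promoter sequences below are shown for members whose values are given below and whose start is preceded by a known response element of these families. They are RefSeq sequences of the 250 bases before each gene's start on assembly GRCr8, written 5′ to 3′ on the gene's own strand. Of the 72 members, 58 had such a sequence, and 47 of these were members with enough counts to be compared. The heat shock element was searched as GAANNTTCNNGAA, whose other strand reads TTCNNGAANNTTC. It was found in 4 of the 58 member promoters (6.9%) and in 222 of 33469 promoters of all genes (0.663%). The 4 members were Hspa8, Hspd1, Hspe1 and Hsph1. In the first 3 windows below, capitals mark that element, for Hsph1 (chr12:10427118-10427367, plus strand), Hspa8 (chr8:50080264-50080513, plus strand) and Hspe1 (chr9:64084077-64084326, plus strand).
Hsph1: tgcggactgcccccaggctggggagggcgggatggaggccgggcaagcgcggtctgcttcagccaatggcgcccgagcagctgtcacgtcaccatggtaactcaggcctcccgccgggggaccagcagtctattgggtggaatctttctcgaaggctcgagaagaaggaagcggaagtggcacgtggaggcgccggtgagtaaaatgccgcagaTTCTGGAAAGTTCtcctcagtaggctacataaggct
Hspa8: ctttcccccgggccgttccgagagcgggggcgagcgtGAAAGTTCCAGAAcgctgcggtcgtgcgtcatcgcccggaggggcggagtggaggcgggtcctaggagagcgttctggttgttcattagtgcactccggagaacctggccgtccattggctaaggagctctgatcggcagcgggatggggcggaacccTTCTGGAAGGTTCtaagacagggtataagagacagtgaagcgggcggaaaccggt
Hspe1: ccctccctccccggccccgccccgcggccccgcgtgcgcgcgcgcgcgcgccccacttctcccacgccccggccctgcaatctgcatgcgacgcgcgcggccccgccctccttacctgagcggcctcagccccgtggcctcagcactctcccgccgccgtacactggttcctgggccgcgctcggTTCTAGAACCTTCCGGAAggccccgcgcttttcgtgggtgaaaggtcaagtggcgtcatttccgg
The element lay 36 to 24 bases before the start of Hsph1. Hspa8 had a match at 213 to 201 and another at 55 to 43 bases before its start. Hspe1 had overlapping matches at 65 to 53 and at 60 to 48 bases before its start. Hspd1 and Hspe1 lie head to head with 289 bases between their starts, so the matches counted for Hspd1 are those of the Hspe1 window read from the other side.

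Hspb1 had no match to that element. It held a shorter form, GAANNTTC, which reads the same on both strands and is contained in the longer element. The shorter form stood in 13 of the 58 member promoters (22.4%) and in 7.23% of all promoters. The Hspb1 window (chr12:26432302-26432551, minus strand) held it at 129 to 122 and at 109 to 102 bases before the start, in capitals here.
Hspb1: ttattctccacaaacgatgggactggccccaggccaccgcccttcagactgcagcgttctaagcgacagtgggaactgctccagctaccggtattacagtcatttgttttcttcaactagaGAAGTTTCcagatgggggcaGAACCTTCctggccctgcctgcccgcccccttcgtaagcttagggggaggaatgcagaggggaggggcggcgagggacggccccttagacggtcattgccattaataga

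The endoplasmic reticulum stress element was searched as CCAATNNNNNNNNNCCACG on both strands. It stood in 3 of the 58 member promoters (5.17%) and in 22 promoters of all genes (0.0657%). The 3 members were Hspa5 (chr3:38452766-38453015, plus strand), Hsp90b1 (chr7:23012294-23012543, minus strand) and Dnajc3 (chr15:102432417-102432666, plus strand), and capitals mark it in their windows.
Hspa5: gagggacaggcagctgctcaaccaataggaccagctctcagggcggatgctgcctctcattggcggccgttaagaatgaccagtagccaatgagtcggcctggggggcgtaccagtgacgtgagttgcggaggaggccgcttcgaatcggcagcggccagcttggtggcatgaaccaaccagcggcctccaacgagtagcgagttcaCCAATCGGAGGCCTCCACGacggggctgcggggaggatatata
Hsp90b1: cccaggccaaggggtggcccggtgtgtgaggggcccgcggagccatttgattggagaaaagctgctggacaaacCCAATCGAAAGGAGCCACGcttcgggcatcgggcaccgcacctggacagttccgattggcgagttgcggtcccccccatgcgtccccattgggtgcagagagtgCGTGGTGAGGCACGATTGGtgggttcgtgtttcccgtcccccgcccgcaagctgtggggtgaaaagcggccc
Dnajc3: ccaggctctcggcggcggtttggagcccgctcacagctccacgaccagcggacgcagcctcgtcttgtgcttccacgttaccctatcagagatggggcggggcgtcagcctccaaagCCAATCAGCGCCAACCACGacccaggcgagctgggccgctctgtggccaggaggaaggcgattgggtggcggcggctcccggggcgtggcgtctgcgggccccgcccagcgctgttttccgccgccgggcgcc
The match lay 43 to 25 bases before the start of Hspa5 and 133 to 115 bases before that of Dnajc3. Hsp90b1 had a match at 176 to 158 bases before its start and 1 in reverse at 72 to 54. A match is a run of letters and does not show that a factor binds there.

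Filters of 500 UMIs and 200 genes as minimum and of 25% mitochondrial UMIs as upper limit left 4037 of 4889 distraction cells and 5183 of 5351 sham cells. The median depth was 4161 UMIs in distraction and 3033 in sham cells, with 31202493 and 29488955 UMIs in all. Classes were gated by marker genes, none of them a member, and 3630 distraction and 4747 sham cells fell into 1 class. Cells that met more than 1 gate were set aside only where the leading gate had under 1.5 times the next gate's share of markers, 139 and 119 cells. Other cells that met more than 1 gate stayed in the leading class. Cells that met the B-lineage gate could not be gated as dendritic. Most gated cells were of the blood-forming lineages: 1523 distraction and 3269 sham cells were of the B lineage, 1117 and 716 neutrophils, 389 and 278 erythroid cells and 182 and 114 granulocyte progenitors. The stromal class, called fibroblast or osteoblast after its collagen and bone matrix markers, held 67 and 43 cells, and the endothelial class 25 and 19. A gate is a range: of the stromal cells, 5 distraction and 6 sham cells stood at the minimum of 3 markers, and 3 cells in each library were 1 marker short. The libraries shared 22 cell barcodes, 19 of them among kept cells.

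Expression was measurable for 58 members with 30 or more counts over both libraries, and the other 14 were not compared. Both cytosolic HSP90 genes passed, with 84342 distraction and 97000 sham counts for Hsp90ab1, the constitutive form. Hsp90aa1, the inducible form, had 65 and 61 counts. Of the 7 HSP70 genes listed, 3 passed: Hspa8, the constitutive cytosolic HSP70, Hspa14, which sits on the ribosome, and Hspa2, best known from sperm cells. Hspa1a, the classic heat-inducible HSP70, had 1 count in all. Near-identical gene copies are known for these families, and how reads that match several genes were counted was not given in the sources used here, so low counts of Hspa1a and Hsp90aa1 are uncertain. All 4 HSP110 proteins and exchange factors passed, as did 4 of 7 small heat shock proteins, 8 of 11 DnaJ proteins of types A and B, 17 of 20 of type C, all 10 members of the endoplasmic reticulum and 8 of 9 of the mitochondrion. Hspb11 and Hspbap1, which carry the prefix by name only, passed too. Levels are counts per 1000000 UMIs of a class (CPM). They are not scaled for gene length, so each is compared between classes and libraries, never between genes.

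The members' summed level, as a share of total UMIs, differed between the blood-forming classes. Genes in general differed too: in neutrophils the median log2 ratio of all genes against other gated cells was -1.39. Members took 9659 CPM in distraction and 9433 CPM in sham B-lineage cells, of which Hsp90ab1 made up 45.9% and 45.8%. In neutrophils the sum was 0.293% of UMIs in distraction and 0.354% in sham cells, and in B-lineage cells 0.966% and 0.943%. With every cell thinned to 2000 UMIs, the median cell held 18 member UMIs in the B lineage of both libraries, 5 and 6 in neutrophils, and 7 and 5 in erythroid cells. Among the classes compared between libraries the sum was highest in endothelial cells, at 18837 CPM in distraction and 15629.8 CPM in sham. Stromal cells stood at 13802 CPM in distraction and 6898 CPM in sham.

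**Figure D1:**
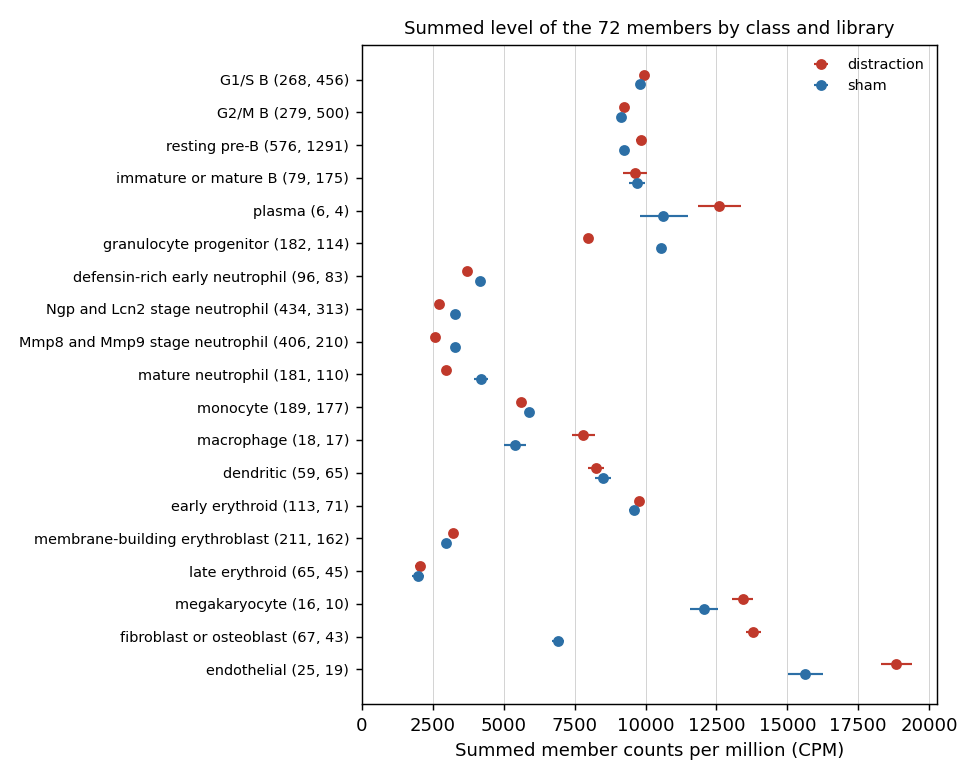
Summed level of all 72 members in CPM (x axis) by class (y axis), with cells per class in brackets after each name (distraction, sham). Bars are 95% counting intervals of 1 library each, and the stromal class shows the widest gap, 13802 against 6898.

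Single members were also compared between the classes. Against all other gated cells of the same library, a member was called when its CPM differed at least 2-fold with the interval on 1 side of 1 in both libraries. B-lineage cells had 16 members higher and 7 lower of 58, where 47.4% of all genes tested were called in either direction and 28.1% as higher. Scaling by the median ratio of abundant genes in place of total UMIs, which moves all B-lineage ratios by 0.80 and 0.66 on the log2 scale, turned this split to 9 higher and 13 lower. Neutrophils had 2 members higher and 37 lower, against 51.7% of all genes lower and 58.6% called in all. The members' median log2 ratio there was -1.71 and that of all genes -1.39. Erythroid cells had 8 higher and 9 lower (31.3% of all genes called), with 6 and 11 under the median-ratio scaling and 6 and 13 when cells were weighted equally. Monocytes had 2 higher and 16 lower (31.2%), with 3 and 11 under that scaling, granulocyte progenitors 3 and 5 (21%), and dendritic cells 1 and 1 (8.85%), with 0 and 3 under that scaling. Endothelial cells had 10 higher and 2 lower, against 7.48% of all genes higher and 14.8% called in all. The median-ratio scaling, which moves endothelial ratios by 0.64 and 0.58 on the log2 scale, left 3 higher and 6 lower. Stromal cells had 3 higher and 8 lower (31.4%), with 7 and 9 when cells were weighted equally. The share of members called was above that of all genes only in neutrophils (67.2% against 58.6%) and endothelial cells (20.7% against 14.8%).

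**Figure D2:**
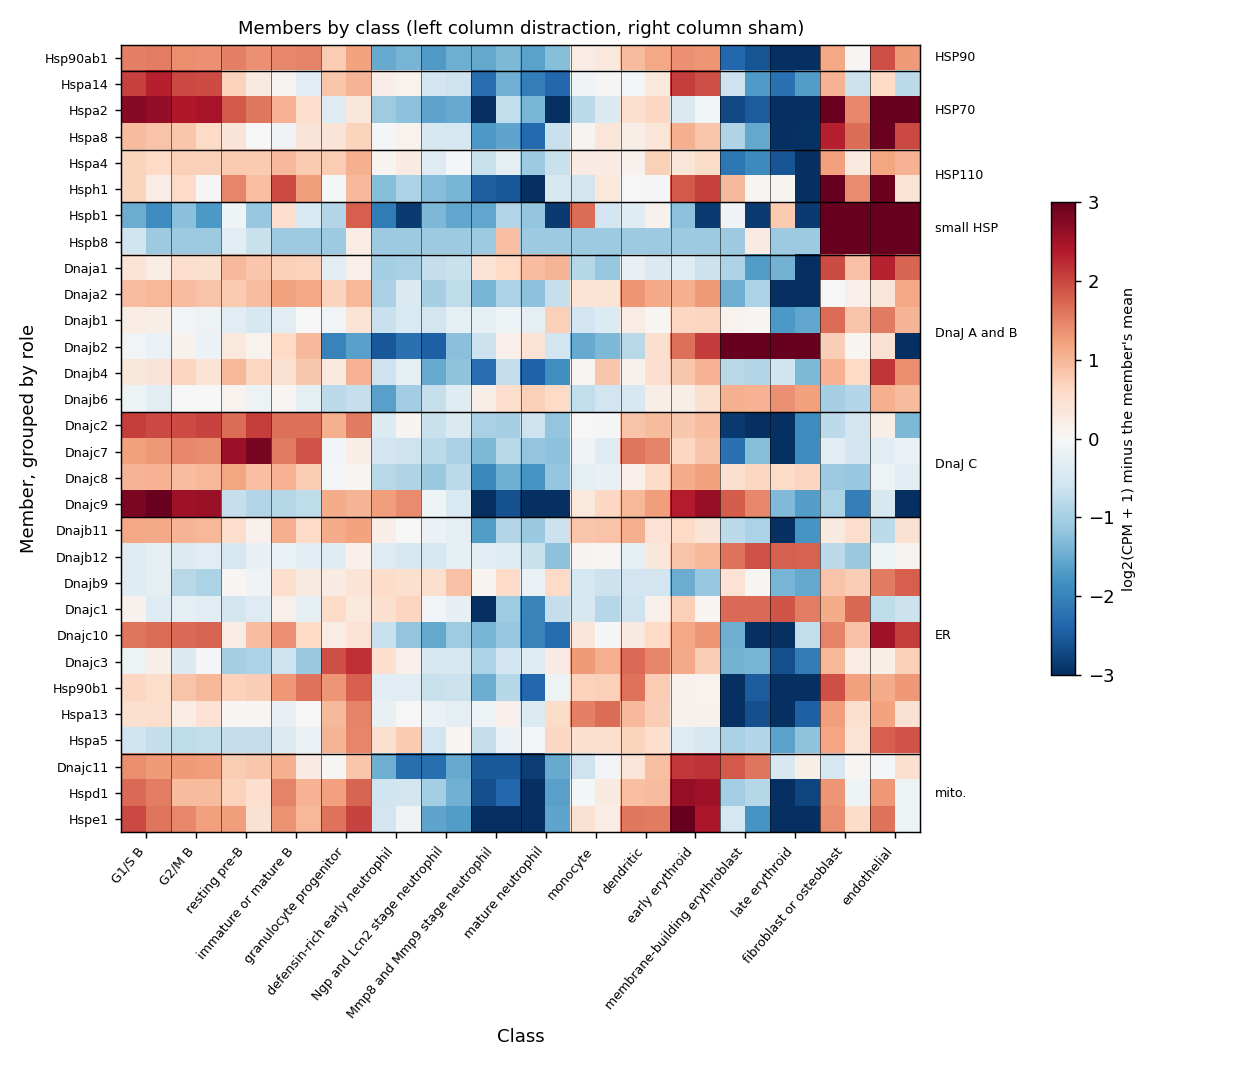
Level of 30 members (rows) with at least 100 CPM in some class and library, as log2(CPM + 1) minus the member's own mean, by class with distraction in the left and sham in the right column of each pair. Colours end at 3 either way; Hspb1 and Hspb8 stand out in the stromal and endothelial columns.

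Of the 4 small heat shock proteins tested, 2, Hspb1 and Hspb8, were higher in stromal and in endothelial cells than in the other gated cells, and the other 2, Hspb3 and Hspb6, were higher in the B lineage at low levels. Hspb1, known as HSP27 and a binder of actin filaments, stood at 1226 CPM in distraction and 205 CPM in sham stromal cells, against 49.997 and 29.4 CPM in the other gated cells. In endothelial cells it stood at 2263 and 3275 CPM. B-lineage cells had 3.15 and 1.78 CPM of it. A UMI of Hspb1 was found in 67.2% of distraction and 34.9% of sham stromal cells and in 92.0% and 94.7% of endothelial cells, and thinned to 2000 UMIs the shares were 48.4% and 28.2%, and 82.6% and 88.9%. B-lineage cells, taken as the background class, gave 1.64% and 0.673%, or 0.639% and 0.283% when thinned.

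Hspb8, a small heat shock protein that works with Bag3 in clearing damaged filament proteins, stood at 159 and 203 CPM in stromal cells and at 84.9 and 129 CPM in endothelial cells. In the cells outside the stromal class it was at 1.63 and 3.99 CPM. A UMI of Hspb8 was found in 29.9% and 27.9% of stromal cells. Hspb1 and Hspb8 were therefore higher in these classes in both libraries, and under every scaling tried.

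Cytosolic HSP70 and HSP90 members had different class patterns. Hspa8 was higher in stromal cells (762 against 201 CPM in distraction, 483 against 200.5 CPM in sham) and in endothelial cells (1185 against 209 CPM and 596 against 204 CPM). Hspa2 stood at 344 and 178 CPM in endothelial cells against 29.8 and 41.6 CPM elsewhere, and at 70.3 and 65.2 CPM in B-lineage cells against 16.9 and 14.7 CPM. Hsp90ab1 stood at 4431 and 4321 CPM in B-lineage cells against 1958 and 2039 CPM in the other cells, a ratio of 2.26 and 2.12. Neutrophils held 518 and 598 CPM of Hsp90ab1 against 3341 and 3735 CPM. The B-lineage call of Hsp90ab1 was lost under the median-ratio scaling, and the neutrophil call kept its direction and size threshold. Hspa14 stood at 72.1 and 70.8 CPM in B-lineage cells against 33.1 and 29.6 CPM. Hspa4l, an HSP110 protein, was higher in granulocyte progenitors (38.3 and 27.3 CPM against 7.79 and 6.59 CPM) and in neutrophils (21.8 and 25.6 CPM against 10.4 and 5.33 CPM).

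Of the 10 members of the endoplasmic reticulum, 2 were higher in granulocyte progenitors, 3 in endothelial cells, 3 in erythroid cells, 1 in monocytes and 1 in the B lineage than in the other gated cells. Lower were 3 in neutrophils, 2 in the B lineage, 2 in erythroid cells and 1 in monocytes. Of all genes, 21% were called in either direction in progenitors, 14.8% in endothelial and 31.3% in erythroid cells. The shares were 31.2% in monocytes, 47.4% in the B lineage and 58.6% in neutrophils. Hspa5, which encodes BiP, stood at 1629.7 and 2203 CPM in granulocyte progenitors against 753 and 713 CPM, and at 2752 and 2949 CPM in endothelial cells against 889 and 814 CPM. B-lineage cells held 509 CPM of Hspa5 in each library against 1069 and 1216.5 CPM in the other cells. Dnajc3, which restrains the kinase PERK, followed with 114 and 138 CPM in progenitors against 41.0 and 34.2 CPM. Dnajb9, a BiP partner that also holds the sensor IRE1 in check, stood at 484 and 565 CPM in endothelial cells against 161 and 155 CPM. Hspa13, a microsomal HSP70, was higher in monocytes, at 207 and 229 CPM against 92.7 and 94.0 CPM. The few plasma cells, 6 and 4, carried 3404 and 3971 CPM of Hsp90b1, which encodes GRP94, 2594 and 2091 CPM of Hspa5 and 517 and 474 CPM of Dnajc3. These are the 3 members with the stress element in the windows shown above, and a link between the element and these levels was not tested.

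DnaJ proteins marked single lineages. Dnaja4, a farnesylated type A protein, stood at 22.6 and 14.2 CPM in erythroid cells against 0.993 and 0.406 CPM elsewhere. A UMI of Dnaja4 was found in 12.9% and 7.91% of erythroid cells and in 0.131% and 0.122% of B-lineage cells. Dnajb2, known for binding ubiquitinated clients, stood at 132 and 154 CPM in erythroid cells against 16.5 and 19.8 CPM, and Dnajb12, a reticulum membrane protein, at 175 and 204 CPM against 59.5 and 64.6 CPM. Dnajc12, which assists the aromatic amino acid hydroxylases, stood at 48.6 and 58.2 CPM in monocytes against 6.71 and 6.66 CPM. It was not particular to monocytes, since dendritic cells held 49.3 CPM of Dnajc12 in distraction and 25.5 CPM in sham. Dnajc7, which has tetratricopeptide repeats that bind HSP70 and HSP90, stood at 476 and 553 CPM in B-lineage cells against 122 and 129 CPM. Dnajc2, a ribosome-bound partner of Hspa14, stood there at 186 and 195 CPM against 57.9 and 64.5 CPM. Distraction dendritic cells held 429 CPM of Dnajc7, after resting pre-B cells at 832 CPM. Dnajc5, the cysteine string protein of secretory vesicles, was higher in neutrophils, at 21.8 and 23.7 CPM against 9.65 and 11.4 CPM.

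Within the B lineage, members changed between cycling and resting pre-B cells in 6 of 53 cases, 3 higher and 3 lower, beside 18.4% of all genes called. Dnajc9, which is also a histone chaperone, stood at 388 and 412 CPM in cycling cells and at 36.8 and 32.0 CPM in resting pre-B cells. Hspa14 stood at 91.2 and 99.9 CPM against 36.1 and 26.7 CPM. Dnajc7 went the other way, at 359 and 364 CPM in cycling against 832 and 1009 CPM in resting pre-B cells. Under the median-ratio scaling the split was 4 higher and 2 lower. No member of 51 was called between G2/M and G1/S B cells, where 1.5% of all genes were called.

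Along the granulocyte lineage most members stood lower at later stages. Of 47 members, 24 were higher in granulocyte progenitors than in mature neutrophils and 1 was lower, where 30.8% of all genes were higher and 41.7% called in all. The median log2 ratio of the members was 1.97 and that of all genes 0.66. Hsp90ab1 stood at 2712 and 3652 CPM in progenitors and at 519 and 658 CPM in mature neutrophils. Hspd1, the mitochondrial HSP60, stood at 209 and 301 CPM against 8.99 and 28.0 CPM. Dnajb6, which suppresses polyglutamine aggregates, was the 1 member higher in mature neutrophils, at 162 and 151 CPM against 56.7 and 60.9 CPM, and its call was lost under the median-ratio scaling.

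Between neighbouring stages the share of members called lay near or under that of all genes at each step. Between progenitors and defensin-rich early neutrophils 14 of 47 members were higher in progenitors and none lower (27.5% of all genes called). From the defensin-rich to the Ngp and Lcn2 stage 2 of 41 were called, both higher in the earlier stage (10.6%). From the Ngp and Lcn2 stage to the Mmp8 and Mmp9 stage 7 of 39 were higher in the earlier stage and 2 in the later (21%), with 13 and 1 under the median-ratio scaling and 10 and 1 when abundant genes were left out of the total. Between that stage and mature neutrophils none of 23 was called (3.86%). Dnaja1, the main cytosolic type A partner of Hspa8, went against this order: its level was 174 and 180 CPM in defensin-rich early neutrophils, 214 and 222 CPM at the Ngp and Lcn2 stage, 474 and 537 CPM at the Mmp8 and Mmp9 stage and 668 and 714 CPM in mature neutrophils, and 283 and 394 CPM in progenitors. Both libraries gave the same order of stages for Dnaja1.

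**Figure D3:**
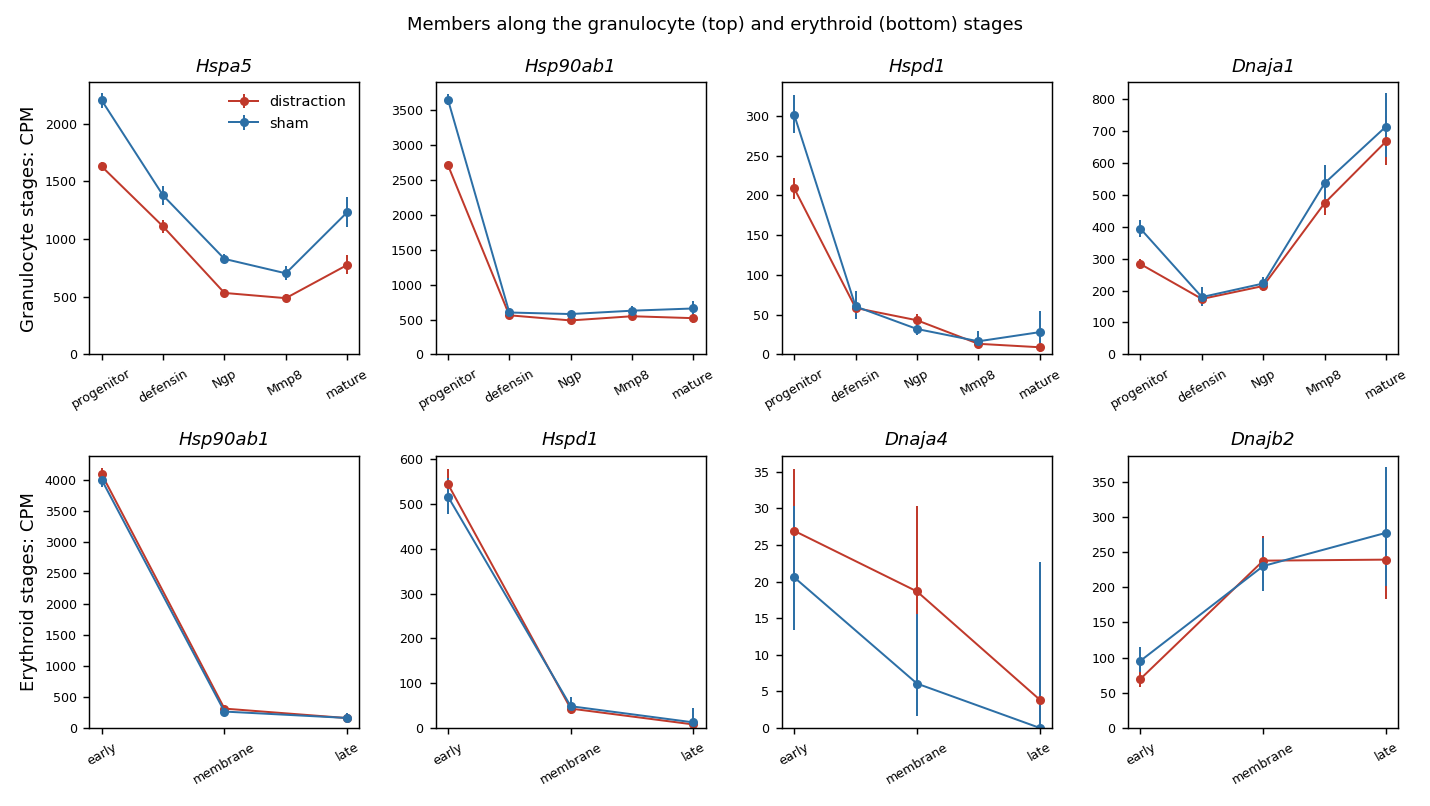
Level in CPM (y axis, linear scale) of Hspa5, Hsp90ab1, Hspd1 and Dnaja1 along the granulocyte stages and of Hsp90ab1, Hspd1, Dnaja4 and Dnajb2 along the erythroid stages, with 95% counting intervals for each library. Hsp90ab1 and Hspd1 stand lower at late stages, while Dnaja1 in neutrophils and Dnajb2 in erythroid cells stand higher.

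Early and late erythroid cells differed in 27 of 40 members, 25 of them higher in early cells and 2 lower, beside 50.4% of all genes higher and 53.9% called in all. The median log2 ratio of the members was 2.64 and that of all genes 2.06. Leaving abundant genes out of the total gave 14 higher and 4 lower. Hsp90ab1 stood at 4088 and 3998 CPM in early and at 158 and 160.2 CPM in late cells, and Hspd1 at 544 and 517 CPM against 7.71 and 12.3 CPM. The 2 members higher in late cells were Dnajb2, at 239 and 277 CPM against 69.7 and 95.4 CPM, and Dnajc1, a reticulum DnaJ protein, at 112 and 86.3 CPM against 49.1 and 30.4 CPM. Both calls were lost under the median-ratio scaling, which moves these ratios by -0.99 and -1.18 on the log2 scale. Macrophages, 18 and 17 cells, had Hspd1, Hspe1 and Dnajc11 higher than monocytes and Dnajc12 and Hspa13 lower, 5 calls of 40 members beside 15.2% of all genes, and the median-ratio scaling gave 1 higher and 4 lower.

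Between the libraries, stromal cells held the widest difference. A member was called here when its ratio reached 1.5 with the interval on 1 side of 1. Of 32 members tested, 15 were higher in distraction and 1 was lower, where 22.5% of all genes were higher and 31.5% called in all. The members' median log2 ratio was 0.70 and that of all genes 0.27. Their summed level was 2.001 times as high in distraction (interval 1.93 to 2.08), or 1.72 times under the median-ratio scaling, which lowers every stromal ratio by 0.22 on the log2 scale and took Dnajc3, Hsp90b1, Hspa13, Hspa5 and Hspa8 off the called members. Thinned to 2000 UMIs per cell, 10 stromal members were called.

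Hsph1, the inducible HSP110 protein, had 1059 counts in distraction and 130 in sham stromal cells, or 1338 against 223 CPM, a ratio of 5.99 (4.99 to 7.24). Hspb1 had 970 and 119 counts, or 1226 against 205 CPM, also a ratio of 5.99 (4.95 to 7.31). The highest single cell held 88 of the Hsph1 counts and 179 of the Hspb1 counts in distraction. A UMI of Hsph1 was found in 80.6% of distraction and 34.9% of sham stromal cells, or 67.7% and 30.8% when thinned, and in 4.74% and 5.73% of neutrophils. Both genes were higher in distraction by every alternative tried.

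Cytosolic folding genes followed at smaller ratios. Hsp90ab1 had 2835 counts in distraction and 965 in sham stromal cells, or 3582 against 1658 CPM, a ratio of 2.16 (2.01 to 2.33). Dnaja1 stood at 1376 against 653 CPM, a ratio of 2.11 (1.87 to 2.37), and Hspa4, an HSP110 exchange factor, at 341 against 177 CPM, a ratio of 1.93 (1.53 to 2.44). Dnajb1, the type B partner that HSF1 induces, stood at 416 against 232 CPM, a ratio of 1.79 (1.46 to 2.21). Hspa8 stood at 762 against 483 CPM, a ratio of 1.58 (1.37 to 1.82). Of the mitochondrial chaperonin, Hspd1 had 177 and 46 counts, or 224 against 79.1 CPM, a ratio of 2.83 (2.04 to 4.00), and its cap Hspe1 stood at 145 against 80.8 CPM, a ratio of 1.80 (1.27 to 2.58). Of the reticulum, Hspa5 stood at 1816 against 1078 CPM, a ratio of 1.69 (1.53 to 1.85), and Hsp90b1 at 675 against 414 CPM, a ratio of 1.63 (1.40 to 1.90). Hspa2 and Hspa14 were higher with 86 against 22 and 37 against 8 counts. The 1 member lower in distraction was Dnajc1, at 64.4 against 99.7 CPM.

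The makeup of the stromal class differed between the libraries in the same comparison. Ibsp, which encodes bone sialoprotein, was found in 13 of 67 distraction and 25 of 43 sham cells. Bglap, which encodes osteocalcin, stood at 10653 against 30326 CPM, and the fibroblast collagen Col3a1 at 21419 against 5994 CPM. Among other stromal markers, Dpt stood at 649 against 105 CPM, Postn at 3975 against 1358 CPM and Lum at 2607 against 2100 CPM. Dcn and Col1a1 went the other way, at 1505 against 2760 CPM and 80954 against 154371 CPM. Markers of mature neutrophils summed to 326 CPM in distraction stromal cells, with 7 of 7 genes detected, and to 41.2 CPM in sham, with 4 of 7. B-lineage markers summed to 89.7 and 139 CPM and macrophage markers to 2.53 and 0 CPM. Osteoclast markers summed to 1039 and 717 CPM, with 2 of 4 genes detected in each library, and mural markers to 50.5 and 136 CPM. Stromal cells were therefore divided by an Ibsp UMI or at least 10 Bglap UMIs, a choice made after seeing the data: 14 distraction and 28 sham cells had these osteoblast markers, and 53 and 15 did not.

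Members stood lower in cells with osteoblast markers in both libraries, at 7640 and 5689 CPM against 15884 and 12571 CPM without. Without the osteoblast-marker cells the summed level of members was 1.26 times as high in distraction, and 6 of 27 members were higher and 1 lower, beside 6.9% of all genes higher and 13.9% called in all. Those higher were Hspb1, Hsph1, Hspe1, Hspa4, Dnajb1 and Hspa14, and Dnajc7 was lower. Among them Hspa14 rested on 34 against 0 counts and Hspe1 on 98 against 4 counts. Hsph1 stood at 1645 against 773 CPM in cells without the markers and at 430 against 106 CPM in cells with them. Hspb1 stood at 1270 against 333 CPM without and at 1096 against 177 CPM with them. In the distraction cells with the markers, 1 of 14 cells held 148 of the 219 Hspb1 counts. Leaving out the highest cell of each library, a choice made after seeing the data, gave 406 against 96.9 CPM of Hspb1 and 312 against 58.8 CPM of Hsph1 in cells with the markers. In cells without them the same step gave 997 against 210.2 CPM of Hspb1 and 1545 against 620.4 CPM of Hsph1. Both genes were thus higher in distraction in either subset.

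Without the osteoblast-marker cells several members called in the whole class no longer met the rule. Hspa5 stood at 2088 against 2368 CPM there, Dnaja1 at 1614 against 1829 CPM and Hsp90b1 at 801 against 812 CPM. Hsp90ab1 stood at 4157 against 3023 CPM, a ratio of 1.38 (1.22 to 1.55), and Hspa8 at 886 against 685 CPM, a ratio of 1.29 (1.01 to 1.68), so both intervals lay above 1 while the ratios stayed under 1.5. Hspd1 stood at 260 against 205 CPM, with an interval that spanned 1. Leaving out cells with neutrophil markers, 64 and 38 cells remained, and 15 of 29 members were higher and 2 lower beside 28.9% of all genes called. How much of the difference in the whole class comes from its makeup was not tested.

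**Figure D4:**
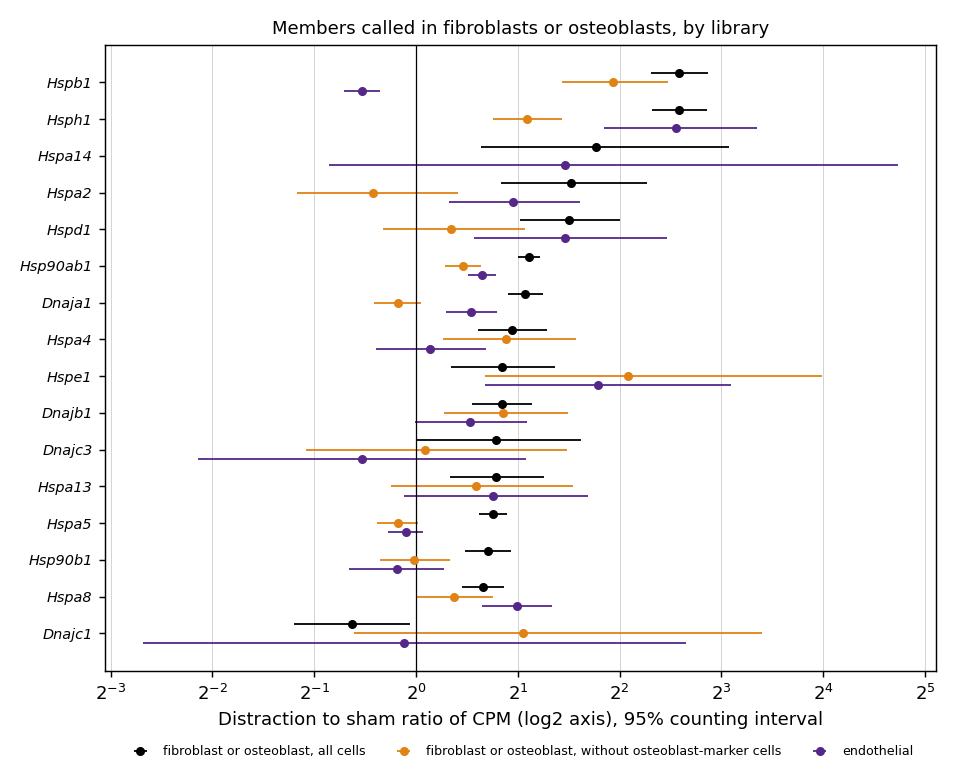
Ratio of distraction to sham (x axis, log scale) with 95% counting intervals for the 16 members called in stromal cells, shown for all stromal cells, for those without osteoblast markers and for endothelial cells. Hspb1 and Hsph1 stay above 1 without the osteoblast-marker cells, while Hspa5 and Dnaja1 move to just below 1. No ratio is drawn where a side has 0 counts, as for Hspa14 without the osteoblast-marker cells.

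Cell by cell, Hsph1 was spread over most distraction cells rather than held by a few. In stromal cells without osteoblast markers, 46 of 53 distraction cells held a UMI of Hsph1, with a median of 12.9 UMIs per 10000 and quartiles of 2.85 and 23.5. In sham 11 of 15 such cells held one, with a median of 2.39. In cells with osteoblast markers the medians were 0.579 and 0, with 8 of 14 and 4 of 28 cells positive. Hspb1 had medians of 3.03 and 0.837 in cells without the markers and reached 102 UMIs per 10000 in 1 distraction cell. The groups overlapped for both genes. The median depth was 9885 and 7083 UMIs in cells without the markers and 12687.5 and 14843.5 in cells with them.

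**Figure D5:**
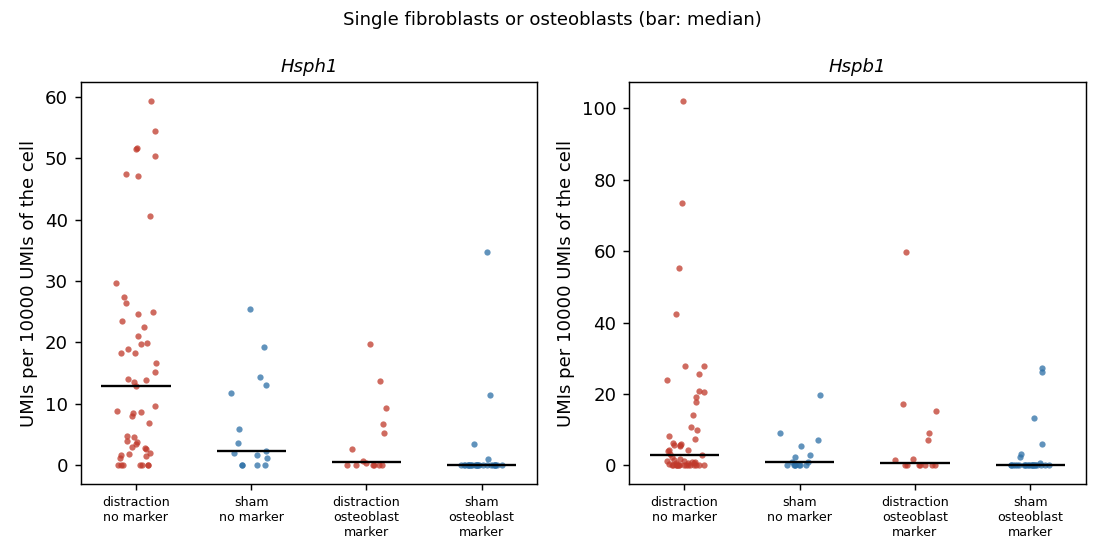
UMIs of Hsph1 and Hspb1 per 10000 UMIs of each stromal cell (points, y axis) in 4 groups, by library and by whether the cell held osteoblast markers; bars are medians. Cells overlap between libraries, and the highest median of Hsph1, 12.9, is in distraction cells without the markers.

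Endothelial cells had 7 of 21 members higher in distraction and none lower, where 6.86% of all genes were higher and 17.2% called in all. The median log2 ratio of the members was 0.47 and that of all genes -0.06, and 4 members were called after thinning. Hsph1 had 153 counts in distraction and 18 in sham cells, or 650 against 111 CPM, a ratio of 5.88 (3.595 to 10.2). Hspe1 had 40 and 8 counts, a ratio of 3.46 (1.60 to 8.55), and Hspd1 52 and 13 counts, a ratio of 2.77 (1.48 to 5.53). Hspa8 stood at 1185 against 596 CPM, a ratio of 1.99 (1.57 to 2.53), and Hsp90ab1 at 6077 against 3871 CPM, a ratio of 1.57 (1.43 to 1.73). Hspa2 at 344 against 178 CPM and Dnajb4, a type B protein, at 289 against 172 CPM completed the set. Hspb1 was on the other side, at 2263 against 3275 CPM, a ratio of 0.691 (0.612 to 0.781) that did not reach the threshold. Mature neutrophil markers summed to 80.7 and 73.7 CPM in this class, stromal markers to 314 and 239.6 CPM, mural markers to 386 and 713 CPM and B-lineage markers to 76.4 and 332 CPM, and their part in the ratios was not tested. All 11 endothelial markers were detected in both libraries, at 5176 and 5554 CPM in sum. All 4 members whose promoter held the longer heat shock element were among the 7, with Hspd1 and Hspe1 sharing the same matches. Of these 4, Hspa8 was lower in distraction in mature neutrophils (ratio 0.309) and Hsph1 in granulocyte progenitors (0.485). Whether the element plays a part was not tested.

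In B-lineage stages the members differed little. None of 47 was called in G1/S cells (4.81% of all genes) and none of 50 in G2/M cells (4.26%). In resting pre-B cells 2 of 46 were higher and 3 lower (5.07%), with 3 and 1 when the most abundant genes were left out of the total. Hspe1 was higher there at 131 against 75.05 CPM, a ratio of 1.75 (1.43 to 2.13), and Hspbap1 was lower at 37.5 against 57.0 CPM. In immature or mature B cells 1 of 22 was called (8.24%), Hsph1 at 324 against 199 CPM, a ratio of 1.63 (1.17 to 2.25). The ratio of Hsph1 was 1.37 (1.18 to 1.59) in G1/S, 1.46 (1.26 to 1.68) in G2/M and 1.47 (1.27 to 1.70) in resting pre-B cells, so its interval lay above 1 in all 4 B stages.

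Granulocyte progenitors had about the same share of members as of all genes lower in distraction. In progenitors 1 of 47 was higher and 5 were lower in distraction, where 10.8% of all genes were lower and 13.4% called in all, while the median-ratio scaling gave 2 and 3, and equal weight of cells 2 and 5. Hsph1 stood at 79.6 against 164 CPM in progenitors, a ratio of 0.485 (0.418 to 0.563), with 1 cell holding 111 of 376 distraction counts and another 97 of 337 sham counts. Dnajb4 stood at 79.3 against 135 CPM, a ratio of 0.588 (0.502 to 0.690). Hspb1 had 14 and 50 counts in progenitors, but 49 of the 50 came from 1 sham cell, without which the direction turned. In the defensin-rich stage 1 of 29 was lower (11.5%), in the Ngp and Lcn2 stage 1 of 35 (9.21%) and in the Mmp8 and Mmp9 stage 2 of 21 (9.47%). Hspa5 stood at 533 against 828 CPM at the Ngp and Lcn2 stage, a ratio of 0.644 (0.601 to 0.689), which missed the threshold under the median-ratio scaling and when abundant genes were left out of the total.

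In mature neutrophils 6 of 14 members were lower and none higher, where 10.4% of all genes were lower and 16.1% called in all. The median log2 ratio of the members was -0.59 and that of all genes 0.01. Hsp90b1 had 15 counts in distraction and 45 in sham, or 33.7 against 158 CPM, a ratio of 0.214 (0.111 to 0.391). Hspa8 had 13 and 27 counts, a ratio of 0.309 (0.146 to 0.620). Hspa5 stood at 776 against 1233 CPM, a ratio of 0.629 (0.541 to 0.732), Dnajb1 at 106 against 214 CPM, Dnajb9 at 142 against 249 CPM and Hspa13 at 53.9 against 105 CPM. Of the 6, 4 belong to the endoplasmic reticulum, as do 5 of the 14 members tested. When cells were thinned to 2000 UMIs, 2 of the members tested were called.

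Monocytes, dendritic cells and both erythroid stages each gave at most 5 calls. In monocytes 1 of 40 was higher and 3 were lower (6.65%): Dnajb4 stood at 67.9 against 116 CPM and Hsph1 at 56.2 against 103 CPM, and 94 of the 238 sham counts of Hsph1 came from 1 cell, without which its call was lost. In the same class 57 of the 61 distraction counts of Hspb1 came from 1 cell. In dendritic cells Hsp90b1 was higher at 547 against 299 CPM, a ratio of 1.83 (1.47 to 2.28), and Dnajb6 lower at 70.4 against 114 CPM, 2 calls of 26 (15.9%). The call of Dnajb6 was lost when abundant genes were left out of the total, and the median-ratio scaling gave 1 higher and 2 lower. In early erythroid cells 2 of 40 were higher (6.51%), Hspe1 at 486 against 303 CPM, a ratio of 1.61 (1.42 to 1.82), and Dnajc1, which turned lower when cells were thinned. In membrane-building erythroblasts 4 of 24 were higher and 1 lower (9.31%), among them Dnaja1 at 184 against 109 CPM, Hsph1 at 163 against 84.8 CPM, a ratio of 1.92 (1.40 to 2.67), and Hspa8 at 80.4 against 51.5 CPM. Dnajc7 was the 1 lower, at 29.1 against 57.5 CPM. When cells were thinned, 1 member was called in that stage.

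Genes that work with the members were counted in the same contrasts, in stromal cells beside 22.5% of all genes higher in distraction and 31.5% called. In these cells 4 of 8 HSP90 co-chaperones were higher in distraction and none lower, with a median log2 ratio of 0.96 against 0.27 for all genes. They were Stip1, which links HSP70 to HSP90, at 125 against 56.7 CPM, Ahsa1, an activator of the HSP90 ATPase, at 166 against 75.6 CPM, Chordc1 at 61.9 against 10.3 CPM and Fkbp4 at 64.4 against 30.9 CPM. Of 8 HSP70 exchange factors and cofactors, 2 were higher, a share close to that of all genes: Bag3, which pairs with Hspb8, at 1200.4 against 481 CPM, and St13. Bag3 stood at 1395 against 753 CPM in cells without osteoblast markers and at 625 against 423 CPM in cells with them. The lens and muscle small heat shock protein Cryab, whose symbol falls outside the rule, was lower in distraction at 470.1 against 1229 CPM. It was high in cells with osteoblast markers, at 1271 and 1455 CPM, and stood at 199 and 166 CPM in cells without. Clu, a secreted chaperone, was higher at 177 against 41.2 CPM. Of 13 genes of the chaperonin CCT and prefoldin 2 were higher and none lower, and of 5 genes of mitochondrial import and stress none was called. None of 2 heat shock factors and regulators tested was called.

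Neighbouring programmes were counted beside the chaperones. Of 14 immediate early genes that tissue handling is known to move, 6 were higher and 1 lower in distraction stromal cells, again beside 22.5% of all genes higher and 31.5% called, with Atf3 at 2231 against 718 CPM and Egr1 at 2998 against 1589.6 CPM. Without osteoblast-marker cells Atf3 stood at 2372 against 1145 CPM and Egr1 at 3526 against 3091 CPM. In endothelial cells 1 of 14 of these genes was higher and none lower, beside 17.2% of all genes called. In mature neutrophils 1 of 14 was higher and 5 were lower (10.4% of all genes lower), and in progenitors 1 was higher and 5 were lower (10.8% lower). Their part in the heat shock differences was not tested. Of 19 genes of the endoplasmic reticulum stress response, 4 were higher in distraction stromal cells and none lower, a share close to that of all genes, and the list's median log2 ratio was 0.23 against 0.27 for all genes. Among them was Ddit3, the stress factor CHOP, at 77.1 against 27.5 CPM. In mature neutrophils 5 of 13 of that list were lower and none higher (10.4% of all genes lower), and in dendritic cells 8 of 20 were higher and none lower (15.9% of all genes called). Of the HSP90 co-chaperones tested in endothelial cells, 2 of 4 were higher (6.86% of all genes), Stip1 at 174 against 92.2 CPM and Ahsa1 at 191 against 92.2 CPM.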

How the data were processed

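The deposited files hold whole-number counts of molecules (UMIs) per gene and cell, made by the authors, per the file headers, in version 1.5.1 of BD's WTA Rhapsody Analysis Pipeline. The submitters' processing notes name the rat build Rnor 6.0 and Seurat 3.6 without a role, and the annotation release, cell calling and the counting of multi-matching reads were unstated. These tables held 32078960 UMIs over 4889 distraction cells and 29924342 over 5351 sham cells, and no other per-sample column (0).

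Cells were filtered and gated on marker genes alone, and no doublet caller was run. Counts were summed per class and library. Ratios of CPM carry exact conditional binomial intervals and levels exact Poisson intervals, both at 95%. A contrast tested genes with at least 30 counts over both sides, over all genes. Between libraries a gene was called at a ratio of 1.5, between classes or stages at a ratio of 2 in both libraries, with the interval on 1 side of 1. The script recovered the ratios it was given in simulated counts. Named genes are the called members, with values in full at 50 CPM or more on 1 side, and of each other list up to 4 genes with the largest ratios. Genes outside it (Egr1, St13, Col3a1, Bglap, Ibsp, the lower levels of Dnaja4, Dnajc5, Hspa4l and Hspa14, and members given where they were not called) were named after their values were seen. So were Dcn, Lum, Dpt, Postn and Col1a1. The members and gene lists were chosen with earlier results of these data known. Alternatives were the cell filter, an extra marker, other scalings (median of ratios, total without abundant genes, mean over cells), thinning to 2000 UMIs with seed 1, leaving out the highest cell, a stricter fold (2 between libraries, 3 between classes), no minimum count, and, chosen after seeing the data, 3 subsets of the stromal class and their values of Hspb1 and Hsph1 without the highest cell. Promoters came from RefSeq (GRCr8). No paralog correction was made. Python 3.11.15, numpy 2.4.6, scipy 1.17.1, pandas 2.3.3 and matplotlib 3.10.9 were used.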

Additional observations from a re-analysis of the deposited data

Results flagged for a closer look

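For 10 members the called difference between distraction and sham pointed up in 1 class and down in another. The difference between the classes was not tested, and each ratio rests on 1 library per group. Dnajb1 had a ratio of distraction to sham of 1.79 in stromal cells and 0.495 in mature neutrophils. Hspa13 had 1.72 in stromal cells and 0.514 in mature neutrophils, and Hspa5 had 1.69 and 0.629 in the same classes. Hspa8 stood at 1.99 in endothelial cells and 0.309 in mature neutrophils, and Hsp90b1 at 1.83 in dendritic cells and 0.214 in mature neutrophils. Mature neutrophils were thus the lower class for 5 of the 10. Hsph1 had 5.99 in stromal cells and 0.485 in granulocyte progenitors. Hspb1 had 5.99 in stromal cells and 0.122 in progenitors, the latter resting on 1 sham cell. Hspa2 had 2.87 in stromal cells and 0.584 in progenitors. Dnajb4 had 1.68 in endothelial cells and 0.323 in Mmp8 and Mmp9 stage neutrophils, and Dnajc1 had 1.61 in early erythroid cells and 0.647 in stromal cells.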

How the results depend on the processing

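Of values for summary results, 259 stayed within the range taken as unchanged and 75 moved; of values for single members 2119 kept their call, 361 kept only their direction and 12 reversed. No paired analysis was possible because each group is 1 library. Counts below are called members, with the reported count in brackets.

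Between libraries, keeping every deposited cell gave 2 in the defensin-rich stage (1) and a minimum of 1500 UMIs gave 3. With 1 more marker per gate, resting pre-B gave 3 (5), immature or mature B 6 (1), the Ngp and Lcn2 stage 2 (1), the Mmp8 and Mmp9 stage 1 (2) and dendritic cells 0 (2). The total without abundant genes gave 0 at the Ngp and Lcn2 stage and 1 in dendritic cells. The median-ratio scaling gave 0 and 1 at the Ngp and Lcn2 and the Mmp8 and Mmp9 stages. The mean over cells gave 1 in G1/S and 1 in G2/M B cells (0 each). Without the highest cell the counts were 2 in each of these, 1 at the Mmp8 and Mmp9 stage and 2 in monocytes (4). Thinning gave 1 in G1/S, 1 in G2/M, 3 in progenitors (6), 0 in the defensin-rich stage, 3 at the Ngp and Lcn2 stage, 2 in mature neutrophils (6), 2 in monocytes, 1 in dendritic cells, 1 in membrane-building erythroblasts (5), 10 in stromal (16) and 4 in endothelial cells (7). The stricter fold gave 0 in resting pre-B, immature or mature B, the Ngp and Lcn2 stage, dendritic and early erythroid cells, 2 in progenitors, 1 at the Mmp8 and Mmp9 stage, 3 in mature neutrophils, 1 in monocytes, 1 in membrane-building erythroblasts, 7 in stromal and 3 in endothelial cells. Without a minimum count the Ngp and Lcn2 stage gave 3, the Mmp8 and Mmp9 stage 4 and early erythroid cells 4 (2).

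Between classes, thinning gave 5 in progenitors (8), 11 in monocytes (18) and 1 in dendritic cells (2), leaving out the highest cell 4 in dendritic cells, and the stricter fold 3, 9 and 1 in these, 5 in erythroid (17) and 6 in endothelial cells (12). Between stages, thinning gave 15 for progenitors against mature neutrophils (25), 5 against the defensin-rich stage (14), 4 for the Ngp and Lcn2 against the Mmp8 and Mmp9 stage (9), 12 for early against late erythroid cells (27) and 0 for macrophages against monocytes (5). The stricter fold gave 3 for cycling against resting pre-B cells (6), 7 for progenitors against the defensin-rich stage, 3 for the Ngp and Lcn2 against the Mmp8 and Mmp9 stage and 2 for macrophages, and the mean over cells gave 3 for macrophages. For the defensin-rich against the Ngp and Lcn2 stage (2) the count was 1 with 1 more marker, 6 without abundant genes, 1 under the median-ratio scaling, 1 thinned and 0 at the stricter fold, and the median-ratio scaling gave 14 for the next step (9).

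The summed stromal ratio (2.001) was 1.72 under the median-ratio scaling, 1.78 as a mean over cells, 1.82 thinned, 1.26 without osteoblast-marker cells, 1.82 without cells with neutrophil markers and 1.81 in cells of 2000 to 20000 UMIs. Without osteoblast-marker cells 7 stromal members were called, and on the log2 scale Dnaja1 reversed to -0.18, Dnajc1 to 1.05, Hsp90b1 to -0.019, Hspa2 to -0.42 and Hspa5 to -0.18; the 3 subsets were chosen after seeing the data. Hspb1 turned to 2.50 in progenitors and -0.25 in monocytes without the highest cell. Thinning turned Hspbp1 in the defensin-rich stage to 0.30, Hspa9 in monocytes to 0.25, Dnajc1 in early erythroid cells to -0.39 and Hspd1 in erythroid against other cells to -0.12, and the mean over cells turned that of Hspd1 to -0.13. The cause was not tested. The few endothelial cells and sham cells without osteoblast markers, and the members under 30 counts, limit what can be compared.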

Other observations

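In a few cells many inducible members were high together. In the distraction library 1 of 16 megakaryocyte-gated cells, with 54398 UMIs, held 557 of the class's 562 Hspb1 counts, 556 of 589 Dnajb1 counts, 64 of 86 Hsph1 counts, 109 of 229 Hspe1 counts and 136 of 152 counts of Bag3. Members made up 3.84% of its UMIs, against 1.34% over its whole class and a median of 0.582% over gated distraction cells. The highest share in a gated cell was 4.81% in distraction, in a plasma cell, and 7.12% in sham, in a B-lineage cell. In the sham library the megakaryocyte-gated cell with the most Hspb1, with 25348 UMIs, held 23 of 39 Hspb1, 27 of 49 Dnajb1 and 29 of 42 Hsph1 counts. The sham progenitor that held 49 of 50 Hspb1 counts, with 59318 UMIs, also held 140 of 350 Dnajb1, 97 of 337 Hsph1 and 138 of 809 Dnaja1 counts of its class, the most of any progenitor for each. These cells are deep, and no doublet caller was run. Other classes looked at in the same way did not all show this. The sham monocyte with the most Hspb1 held 5 of 9 Hspb1 but 1 of 238 Hsph1 counts, with members at 0.670% of its UMIs. Among distraction progenitors no cell held more than 1 of the 14 Hspb1 counts. Mural cells, 3 and 6 in the libraries, stood at 5499 and 2701 CPM of Hspb1 and at 999.8 and 2078 CPM of Hspb8.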
